A study of Mus musculus with 42 samples.

Results

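Aatk, the gene of apoptosis-associated tyrosine kinase, was followed in the livers of 42 male mice. It is 1 of the 19758 genes that appear in at least 1 of the 6 deposited tables, and it was listed in all 6. Aatk was selected because it stood among the genes most raised by the high-fat diet in wildtype (WT) mice, so the values of that comparison are a description and carry no test. The other comparisons below use at least some mice that played no role in the selection, and the shared mice are named beside each result.

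The mice were C57BL/6J animals in 6 groups of 7: lean and obese WT mice, lean and obese knockout (KO) mice, and obese mice of either genotype treated with RvE1 (WT obese+RvE1, KO obese+RvE1). The KO mice lack ChemR23, the receptor encoded by Cmklr1, through CRISPR/Cas9 editing, and their WT controls were littermates. Lean mice ate a diet with 10% of its energy from fat and obese mice a lard diet with 60%, from 6 weeks of age and for 15 weeks. RvE1 (resolvin E1), a lipid mediator made from eicosapentaenoic acid that binds ChemR23, was injected into the abdomen at 300 ng on 4 consecutive days, all other mice received ethanol in buffered saline, and livers were taken on day 5 after a fast of at least 4 h. Whole liver was sequenced, so a change in the number of cells of a type and a change in the RNA per cell cannot be told apart, and only 1 sex, 1 diet duration and 1 RvE1 dose were studied.

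AATK, also called LMTK1, belongs to the lemur kinases, a small family of membrane-anchored kinases, and was first described as a transcript induced in myeloid cells undergoing apoptosis. It is best known from the nervous system, where it is phosphorylated by CDK5 with its activator p35 and acts through the small GTPase RAB11 on the movement of recycling endosomes and the growth of neurites. Its name comes from the cell death in which it was found, and its role in hepatocytes is less well described.

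The mouse gene (ENSMUSG00000025375.15) lies on the minus strand of chromosome 11, from 120007313 to 120047167 of GRCm38, the assembly also called mm10. The annotation holds 9 transcripts, of which Aatk-201, Aatk-202 and Aatk-203 are protein-coding with 14 exons each. Aatk also hosts microRNAs: the hairpins of Mir338, on the same strand, and Mir3065, on the opposite strand, lie in intron 7 of 13 of each coding transcript, between 120013735 and 120015458. Because a host transcript carries the precursor of an intronic microRNA on its strand, the mature sequences of the locus are shown here as RefSeq gives them for GRCm38.p6, with the seed (bases 2 to 8) in capitals.
mmu-miR-338-3p: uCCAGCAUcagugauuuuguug
mmu-miR-338-5p: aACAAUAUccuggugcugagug
mmu-miR-3065-5p: uCAACAAAaucacugaugcugg
The miR-338-3p sequence comes from 120014781 to 120014802 and miR-338-5p from 120014816 to 120014837, both on the minus strand, whereas miR-3065-5p comes from 120014780 to 120014801 on the plus strand. The 3 seeds differ from one another, so no seed is shared at this locus. The libraries were not made from small RNA, and mature microRNAs were therefore not measured.

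Values are normalized counts, that is reads divided by a size factor estimated separately in each table of 14 libraries. Levels are therefore compared within a table unless a common scale is named. The libraries held 15960120 to 43755273 reads on listed genes (median 24253532), and Aatk was covered by 88 to 1992 reads per library, which at the lowest depth leaves a counting error of 10.7%. A gene is called higher or lower when its Benjamini-Hochberg (BH) adjusted p from limma was below 0.1 and its fold change above 1.5. Cmklr1, the targeted gene, ran from 9.72 to 22.6 in KO lean against 40.8 to 114 in WT lean mice and from 5.08 to 23.2 in KO obese against 33.3 to 102 in WT obese mice, so genotypes did not overlap. The 6 hepatocyte markers (Alb, Apoa1, Ttr, Hnf4a, Cps1 and Apob) were listed in every table, and none was called in any of the 6 tables.

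Aatk was raised by the high-fat diet in WT livers. WT lean mice had 107 to 232 normalized counts (median 140) and WT obese mice 480 to 1262 (median 770). Every obese mouse lay above every lean mouse, and the lowest obese animal (22L) had more than the highest lean one (8RL). The group means were 150 ± 46.7 (SD, n = 7) and 861 ± 287 (SD, n = 7), a log2 fold change of 2.50 (SE 0.22, 95% interval 2.03 to 2.97), or 5.65-fold. By fold change this was the 11th of 317 genes called higher, which are 2.26% of the 14012 genes tested. A further 215 genes (1.53%) were called lower, and in 0.799% of all genes every WT obese mouse lay above every WT lean mouse. These shares describe the comparison that selected the gene, and nothing is read from Aatk's place among them.

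The same diet raised Aatk in mice without ChemR23, none of which had been used to select the gene. KO lean mice had 194 to 807 normalized counts (median 228) and KO obese mice 668 to 926 (median 876). The KO groups overlapped, because the lean mice 20-2L (715) and 20L (807) reached the obese range while the other 5 lean mice stayed between 194 and 311. Of the 7 KO obese mice, 4 lay above every KO lean mouse, as was the case for at least 4 mice in 12.0% of all genes. The means rose from 385 ± 261 (SD, n = 7) to 834 ± 99.1 (SD, n = 7), with a log2 fold change of 1.35 (SE 0.29, 95% interval 0.74 to 1.96) or 2.55-fold, and a BH-adjusted p of 0.00933 with limma. An exact two-sided permutation test over the 14 mice gave p = 0.00408, where 3432 arrangements allow a smallest p of 0.000583. Aatk was among the 706 genes called higher, which are 4.97% of the 14213 genes tested, while 770 (5.42%) were called lower. Scaling the libraries to equal totals changed this split to 1324 higher and 351 lower and left Aatk called (1.49). The numeric prefix of the mouse name, whose meaning the labels do not give, is 20 for both high KO lean mice, and without the 3 mice numbered 20 the log2 fold change was 1.83.

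**Figure D1:**
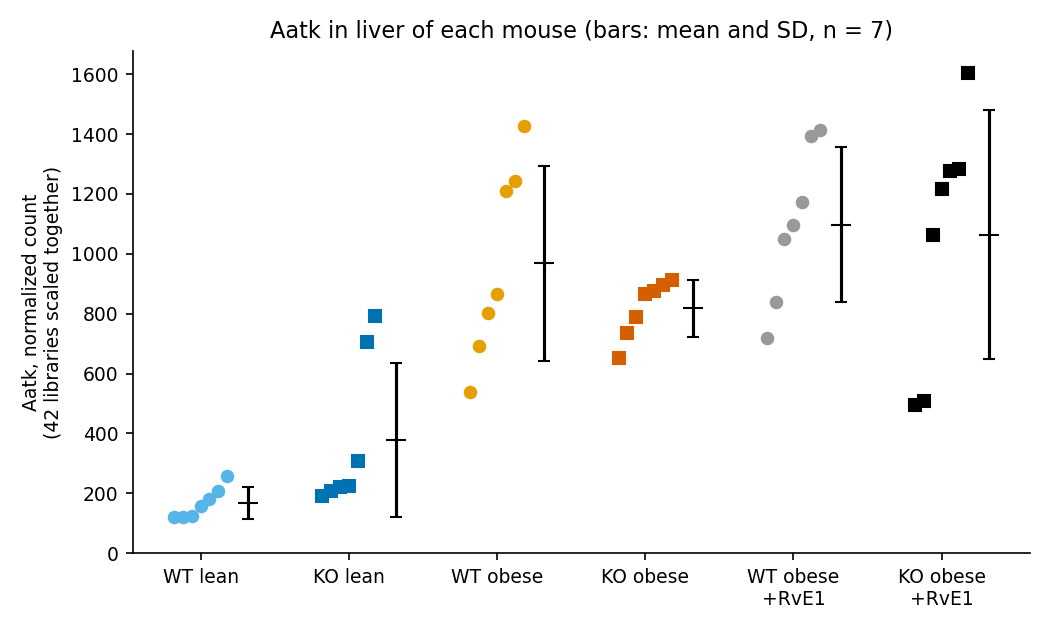
Normalized counts of Aatk in each of the 42 livers on a common scale (y axis), by group (x axis), with points for mice and bars for the mean and SD (n = 7). All mice of the 4 obese groups lie above the highest WT lean mouse (259), and the KO lean group splits into 5 mice at 191 to 307 and 2 at 705 and 792.

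To place all 6 groups on 1 scale, the reads were recovered from the tables and the 42 libraries were scaled together. On this common scale the mean normalized count of Aatk was 167 ± 52.3 in WT lean, 378 ± 257 in KO lean, 818 ± 95.8 in KO obese, 968 ± 327 in WT obese, 1060 ± 417 in KO obese+RvE1 and 1100 ± 259 in WT obese+RvE1 mice (SD, n = 7 each). In that order, the 4 obese groups were neighbours whose ranges overlapped, and KO lean overlapped WT lean and all 4 obese groups. All 28 mice on the high-fat diet exceeded the highest WT lean mouse, as did 3 of the 7 KO lean mice. The WT lean and WT obese mice had been the low and the high group in the selection of Aatk. The share of all genes with this pattern was not counted, so nothing is read from it. The most even group was KO obese, with a coefficient of variation of 11.7%, and the most uneven was KO lean, with 67.9%.

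The treated mice, which were not used to select the gene, repeated the high level against lean controls. On the common scale WT obese+RvE1 mice ran from 719 to 1412 and WT lean mice from 120 to 259, with no overlap. The log2 fold change was 2.73 (SE 0.28, 95% interval 2.16 to 3.29, BH-adjusted p = 1.70e-08 with limma), and 3.16% of 12742 genes were called higher. The WT lean mice had been the low group in the selection of Aatk. The share of all genes without overlap here was not counted, so nothing is read from the lack of overlap. KO obese+RvE1 mice ran from 495 to 1604 and KO lean mice from 191 to 792, so that the low treated mice 23RL and 12-2L (508) fell among the lean animals. Aatk was nevertheless higher by 1.61 (SE 0.28, 95% interval 1.05 to 2.18, BH-adjusted p = 0.000492 with limma) on the log2 scale, and 3.39% of genes were called higher.

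Lean mice of the 2 genotypes differed in Aatk, less firmly. In the table that holds both, WT lean mice had 111 to 241 normalized counts (median 146) and KO lean mice 177 to 731 (median 207). Only 3 KO lean mice lay above every WT lean mouse, and at least 3 did so in 19.5% of all genes. The means were 156 ± 48.3 and 349 ± 236 (SD, n = 7 each), a log2 fold change of 0.97 (SE 0.32, 95% interval 0.30 to 1.65) with a BH-adjusted p of 0.0682 by limma and p = 0.0122 by the exact two-sided permutation test. Of the 13031 genes tested, 3.94% (514) were called higher and 2.7% (352) lower, a split of 265 and 734 with equal totals. The WT lean mice had been part of the selection of Aatk, in which they were the low group. The call was lost with the number of the mouse name as a random block (0.94, BH-adjusted p = 0.166) and without 20L (0.76, BH-adjusted p = 0.130) or 20-2L (0.79, BH-adjusted p = 0.126). Without all 3 mice numbered 20, the log2 fold change was 0.49 and the BH-adjusted p 0.141, so the size of the difference rests largely on 20L and 20-2L.

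On the high-fat diet the genotypes did not differ in Aatk beyond their spread. KO obese mice had 642 to 893 normalized counts (median 849) and WT obese mice 527 to 1390 (median 845), so every KO obese mouse lay inside the WT obese range. The means were 804 ± 94.6 and 949 ± 318 (SD, n = 7 each), and the log2 fold change was -0.17 (SE 0.18, 95% interval -0.56 to 0.22, BH-adjusted p = 1.00 with limma). In this comparison 0.0141% of 14162 genes, or 2, were called in either direction. The same held after treatment, where KO obese+RvE1 minus WT obese+RvE1 was -0.13 on the log2 scale (95% interval -0.70 to 0.44, BH-adjusted p = 0.995 with limma) and 0.00785% of genes were called. The vehicle-treated WT obese mice had been part of the selection of Aatk, in which they were the high group.

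The diet difference in Aatk was smaller in KO than in WT mice by 1.15 on the log2 scale (SE 0.39, 95% interval of the KO minus WT difference -1.94 to -0.36). This interaction did not pass across 13924 genes (BH-adjusted p = 0.146 with limma), where 0.00718%, or 1 gene, passed at an adjusted p below 0.1 and 2553 had an unadjusted p below 0.05. It contains the WT contrast that selected the gene, and it fell to -0.67 without the mice numbered 20. It passed with library quality weights (-1.13, BH-adjusted p = 0.0251), without the WT obese mouse 22L (-1.28, BH-adjusted p = 0.0738) and without the KO lean mouse 20R (-1.24, BH-adjusted p = 0.0547).

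**Figure D2:**
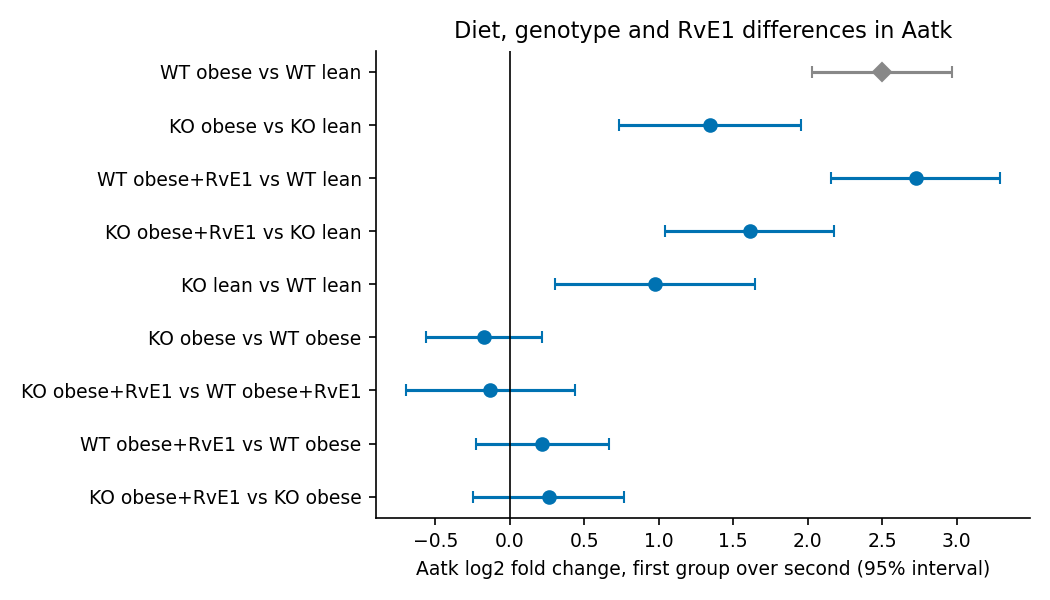
Log2 fold change of Aatk (x axis) in 9 comparisons (y axis), with points for the estimate and bars for the 95% interval, and with the comparison that selected the gene as a gray diamond. The diet intervals all lie above 0, whereas the RvE1 intervals and those between genotypes on the high-fat diet include 0.

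In WT mice RvE1 left Aatk within the spread of vehicle-treated mice. Treated livers had 749 to 1479 normalized counts (median 1150) and vehicle livers 563 to 1481 (median 902), and the groups overlapped over nearly the whole range. The means were 1149 ± 271 and 1012 ± 339 (SD, n = 7 each), a log2 fold change of 0.22 (SE 0.21, 95% interval -0.22 to 0.66, BH-adjusted p = 0.960 with limma, exact permutation p = 0.367). No gene was called (0.0% of 13085 with limma), although 795 had an unadjusted p below 0.05, and edgeR called 1 and DESeq2 15. These vehicle mice are the WT obese mice of the diet comparison.

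In KO mice the means of Aatk did not differ beyond the spread, and no treated mouse lay inside the vehicle range. KO obese+RvE1 livers had 507 to 1643 normalized counts (median 1252), whereas KO obese livers had 674 to 935 (median 885). Of the treated mice, 5 lay above every vehicle mouse and 2 (23RL with 507 and 12-2L with 521) below every one, a pattern seen in 0.204% of 14207 genes. The means were 1092 ± 428 and 842 ± 99.0 (SD, n = 7 each), with a log2 fold change of 0.26 (SE 0.24, 95% interval -0.24 to 0.77, BH-adjusted p = 0.763 with limma, exact permutation p = 0.337). No gene was called (0.0% with limma), 1179 had an unadjusted p below 0.05, edgeR called 0 and DESeq2 14. The RvE1 difference did not differ between genotypes beyond the error (0.043, 95% interval -0.64 to 0.73, BH-adjusted p = 1.00 with limma), and by this test 0.0% of 13059 genes passed, with 311 at an unadjusted p below 0.05 and 0 called by edgeR. This interaction includes the WT obese mice that were part of the selection.

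The 2 KO lean mice with high Aatk lay between the diets in the means of other diet-sensitive genes as well. The 313 other genes called higher in WT obese mice that could be followed in KO mice had a mean log2 deviation from the KO table mean of -0.04 in 20L and -0.11 in 20-2L, against -0.62 to -0.29 in the other 5 KO lean mice and 0.12 to 0.58 in KO obese mice. The 212 genes called lower in WT obese mice gave 0.13 and 0.04 in the same animals, against 0.36 to 0.58 and -0.55 to -0.21. The third mouse numbered 20 (20R) sat with the other lean mice in Aatk (227) and in the raised genes (-0.58). Single genes that the study named for the diet were mixed. Cfd, which encodes the complement factor adipsin, was 67.2 in 20L and 76.1 in 20-2L and 8.80 to 23.5 in the other KO lean mice. Fabp5 was 179 and 209, against 273 to 829 in the other lean and 22.5 to 159 in obese KO mice. In contrast, Scd1 (648525 and 1011896) and Chrna4 (109 and 124) lay inside the range of the other KO lean mice. Tpm2 (42.3 and 32.1) lay inside that range only through the mouse 9RL (85.2), with 11.7 to 23.5 in the rest. In KO mice, 149 of the 313 raised genes were called higher on the high-fat diet and 0 lower, and 104 of the 212 lowered genes were called lower and 0 higher, beside the background of 4.97% and 5.42%.

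**Figure D3:**
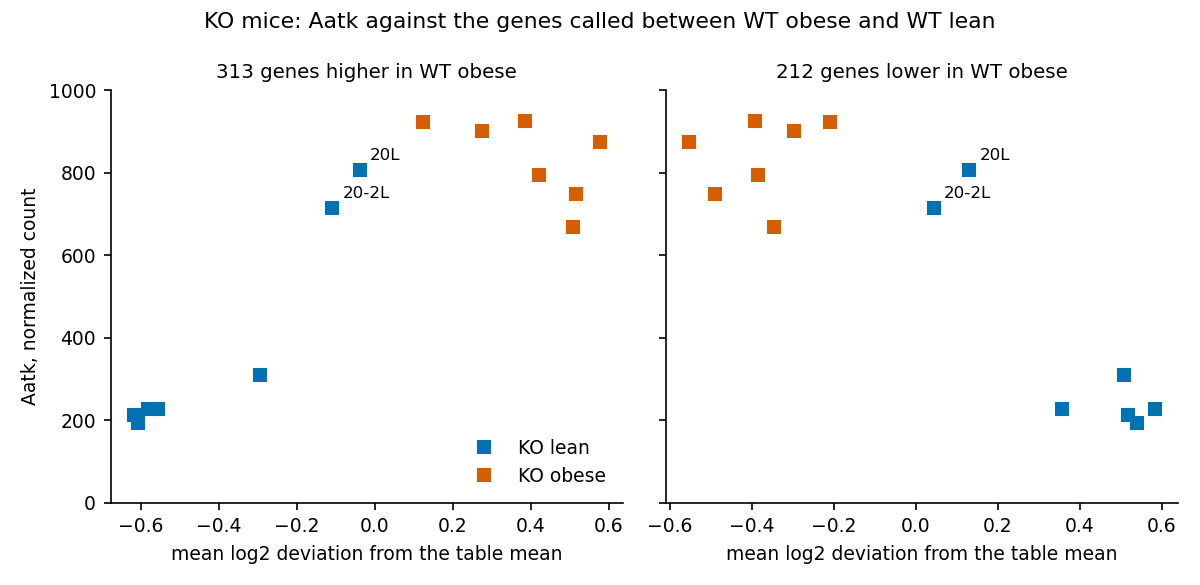
Normalized counts of Aatk (y axis) in the 14 KO mice against their mean log2 deviation from the table mean (x axis) for 313 genes higher (left) and 212 genes lower (right) in WT obese than WT lean mice. The lean mice 20L and 20-2L lie between the other lean mice and the obese mice in both panels.

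The lemur kinase family did not move as a group. Per kilobase of the longest annotated transcript (6455 bases for Aatk), the level of Aatk was 23.2 ± 7.24 normalized counts in WT lean and 133 ± 44.5 in WT obese mice (SD, n = 7 each). Lmtk2, a widely expressed relative that acts in endosome traffic, was at 82.8 ± 10.8 and 75.2 ± 13.7 per kilobase, so the mean of Aatk lay below that of Lmtk2 in lean and above it in obese mice. In KO mice Aatk was at 59.6 ± 40.4 in lean and 129 ± 15.4 in obese livers and Lmtk2 at 68.1 ± 25.3 and 95.2 ± 15.9. The log2 fold change of Lmtk2 with diet was -0.15 in WT (BH-adjusted p = 0.563 with limma) and 0.53 in KO mice (BH-adjusted p = 0.0557), the latter below the 1.5-fold threshold. Lmtk3, a mainly neuronal member, did not exceed 2.13 normalized counts per kilobase in any of the diet libraries and was near the limit of detection.

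Partners of AATK known from neurons and cell lines showed no call with the diet. The list held 11 genes (Cdk5 and its activators Cdk5r1 and Cdk5r2, the kinase Stk39, its chloride cotransporter target Slc12a2, the phosphatase subunits Ppp1ca, Ppp1cb and Ppp1cc, the GTPases Rab11a and Rab11b, and the RAB11 regulator Tbc1d9b), of which Cdk5r2 was not listed. Of the 10 tested, 0 were called in WT mice, with a median log2 fold change of 0.07 against 0.00 over all genes. Of all genes, 2.26% were called higher and 1.53% lower there. In KO mice 0 were called and the median was -0.03, where 4.97% of all genes were called higher and 5.42% lower. At these shares, 0 of 10 does not set the partners apart from other genes. Slc12a2 (577 ± 88.7 against 413 ± 110, log2 fold change 0.51, BH-adjusted p = 0.0410 with limma) passed the p threshold upward and Ppp1ca (-0.58), Ppp1cc (-0.53) and Rab11a (-0.28) downward, all below 1.5-fold. Between lean genotypes Ppp1cc was called higher in KO mice (2016 ± 431 against 1213 ± 141, log2 fold change 0.71, BH-adjusted p = 0.0304 with limma), and after RvE1 none passed.

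Genes of apoptosis, the process that gave the kinase its name, were set beside it. Of 25 genes, 2 were called higher and 0 lower in WT obese mice, where 2.26% and 1.53% of all genes were, and their median log2 fold change was 0.02 against 0.00 over all genes. One of them was the death receptor gene Tnfrsf10b, which was low (13.5 ± 2.73 against 6.94 ± 2.81 normalized counts, log2 fold change 0.92, BH-adjusted p = 0.0496 with limma). In KO mice 1 gene was called higher with the diet (Tnfrsf10b, 0.96) and 3 lower, beside 4.97% and 5.42% of all genes, the lower ones all encoding proteins with a BH3 domain that promote cell death. Bbc3 (PUMA) fell from 400 ± 97.5 to 200 ± 34.2 (log2 fold change -0.97, BH-adjusted p = 0.00348 with limma), Bad by 0.73 and Bik by 0.71 on the log2 scale. The same 3 genes were called higher in KO lean than in WT lean mice, together with Cycs and Diablo, which encode mitochondrial proteins released in apoptosis. These were 5 of the 24 genes tested there, with 0 called lower, beside 3.94% and 2.7% of all genes. These 2 comparisons share the KO lean mice. With the number of the mouse name as a random block, 3 genes in place of 866 were called between lean genotypes. Which apoptosis genes kept a call under that setting is not reported here. With limma, 0 of the 25 genes were called in the 3 comparisons among obese mice. The paper, which used DESeq2, reports Bbc3 as significantly higher after RvE1 in obese KO mice.

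Genes of lipid droplets and targets of PPARG, the nuclear receptor of fat storage, were called in both directions with the diet, with 7 of 13 not called in WT and 7 not called in KO mice. Of these 13 genes, 5 were called higher in WT obese mice (Pparg 1.62, the fatty acid transporter Cd36 1.59, the acyltransferase Mogat1 2.04, the lipoprotein receptor Vldlr 1.19 on the log2 scale and the fat storage protein Fitm1, at 851 ± 205 against 321 ± 137 normalized counts) and 1 lower (the droplet coat protein Plin2, -1.02), with a median of 1.19 against 0.00 over all genes, of which 2.26% were called higher and 1.53% lower. In KO obese mice 4 were called higher (Pparg 2.05, Plin4 2.02, Cd36 1.46 and Vldlr 1.33) and 2 lower (Plin2, -0.95, and Plin5, -1.19), with a median of 0.54 and a background of 4.97% and 5.42%. In KO lean against WT lean mice Plin5 (1.09) and Cd36 (0.71) were called higher. None was called among obese mice. The 7 genes that the study named beside Aatk for the WT diet comparison, chosen on these same mice, were all called there (3 higher, 4 lower), and 6 of them were tested in KO mice, with 3 called higher and 3 lower. Among those, Cyp2b9, a drug-metabolizing cytochrome, was higher by 7.64 and Fabp5, a fatty acid carrier, lower by a change of -3.15 on the log2 scale.

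Markers of other cells were set beside these results. The 6 Kupffer cell markers (Clec4f, Vsig4, Timd4, Cd5l, Marco and Adgre1) were all called higher in KO lean than in WT lean mice (Cd5l by 1.32, Clec4f by 0.98), where 3.94% of all genes were called higher, 5 were called lower in KO obese than in KO lean mice, where 5.42% of all genes were, and 0 were called in WT mice with the diet. Their summed normalized counts were 6546 to 14502 in KO lean mice and 3645 to 4811 in KO obese mice, and the 2 KO lean mice with high Aatk had 14502 (20L) and 7336 (20-2L), with 6546 to 11077 in the others. With the number of the mouse name as a random block, 3 genes in place of 866 were called between lean genotypes. Which Kupffer cell markers kept a call under that setting is not reported here. Of the 7 neural and Schwann cell markers, 3 could be tested with the diet, whereas Sox10, S100b, Tubb3 and Snap25 were not listed in the diet tables. With the diet, 1 of the 3 was called higher in WT mice and 1 lower in KO mice, the latter being the synaptic gene Syp, with a log2 fold change of -0.70. The neural sums ran from 48.4 to 97.9 in WT lean, 63.8 to 126 in WT obese, 59.3 to 165 in KO lean and 68.9 to 112 in KO obese mice, so the diet groups overlapped. Of the 5 adipocyte markers only Cfd was listed in the diet tables, and it was called higher with the diet in both genotypes (4.34 in WT and 3.01 in KO mice on the log2 scale, BH-adjusted p = 1.76e-05 and 0.0328 with limma). Cfd had 4.68 to 22.3 normalized counts in WT lean, 121 to 556 in WT obese, 8.80 to 76.1 in KO lean and 21.8 to 1738 in KO obese mice, whereas Adipoq, Plin1, Lep and Retn were not listed there. Other markers called with the diet in KO mice were all lower, among them Hbb-bs of erythroid cells, Lyz2 of recruited macrophages, Clec4g of endothelium and Des of stellate cells. Between lean genotypes Ccr2 and Lyz2 were called higher and the cholangiocyte marker Krt19 lower in KO mice. The part of these cell types in the level of Aatk was not tested.

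No tested neighbour of Aatk was called with it. The annotation places 21 other genes within 250 kb, and 10 of these were tested in each diet comparison. None was called in any of the 6 tables. With the diet, 2.26% of all genes were called higher and 1.53% lower in WT mice, and 4.97% and 5.42% in KO mice. At these shares, 0 of 10 does not set the neighbours apart from other genes. Baiap2, a cytoskeletal adaptor gene that ends 530 bases away on the opposite strand, had 490 ± 214 normalized counts in WT lean and 721 ± 225 in WT obese mice (log2 fold change 0.64, BH-adjusted p = 0.234 with limma) and 623 ± 199 against 723 ± 186 in KO mice (0.24, BH-adjusted p = 0.423). The row of Mir338 was listed only for KO obese against WT obese mice and held 4 reads in 2 KO obese mice and 3 reads in 1 WT obese mouse, too few for a comparison. The strand setting of the counting is not known, so reads from Mir338 and from Mir3065 opposite it could not be told apart. Those reads come from the stretch of the intron that holds the sequences shown above and say nothing of the mature microRNAs.

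Genes whose levels followed Aatk were ranked over the 14 WT mice of the diet comparison, among 12071 genes that averaged 20 or more normalized counts. The highest Pearson correlations on the log2 scale were those of Tpm2 (0.943), Plscr2 (0.941), E330011O21Rik (0.937), Cfd (0.936), Antxr2 (0.935), Kcnn1 (0.923), Wnt5b (0.918), Slc47a1 (0.917), Pmm1 (0.914) and Themis (0.912), and the 11th gene had 0.910. The lowest were those of Rnf145 (-0.944), Nploc4 (-0.914), Apom, Fabp5 and Lepr (each -0.912). All of these points share the diet difference that selected Aatk, so the list describes genes that separate the diets as it does. In the 14 KO mice all 10 positive correlations kept their sign, from 0.463 (Kcnn1) to 0.914 (Slc47a1), and 9 were above 0.5, as were 10.3% of all genes. The 5 negative ones ran from -0.805 (Apom, an apolipoprotein gene) to -0.470 (Rnf145).

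Slc47a1, which encodes the multidrug and toxin extrusion transporter MATE1, had the highest correlation with Aatk in KO mice among these 10 genes. Its normalized counts were 741 to 1510 in WT lean and 1883 to 2376 in WT obese mice, and 1222 to 2093 in KO lean and 2262 to 3046 in KO obese mice. Among KO lean mice its highest values were 2093 in 20-2L and 1996 in 20L, the animals with high Aatk. Within groups, that is after each group mean was removed, its correlation with Aatk was 0.628 over the 14 WT and 0.784 over the 14 KO mice, and that of Plscr2, a phospholipid scramblase family gene, 0.627 and 0.795. These were the highest of the 10 in KO mice. The rest ran from -0.389 (Antxr2) to 0.615 (Pmm1) in KO mice and from 0.138 (Pmm1) to 0.757 (Wnt5b) in WT mice. The 5 negative genes ran from -0.456 (Apom) to 0.142 (Rnf145) in KO mice and from -0.814 (Rnf145) to -0.179 (Fabp5) in WT mice. Slc47a1 lies on the same chromosome as Aatk, far from it, between 61343401 and 61378345.

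**Figure D4:**
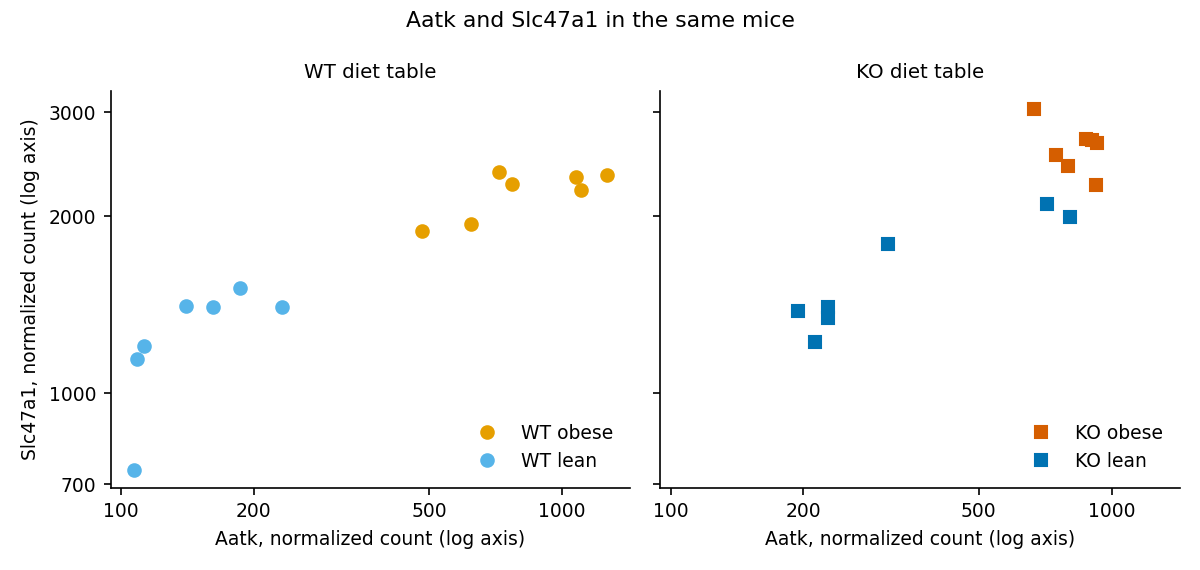
Normalized counts of Slc47a1 (y axis, log scale) against those of Aatk (x axis, log scale) in the mice of the WT (left) and KO (right) diet tables, 1 point per mouse. Most of the slope lies between the diets, and the KO lean mice at 715 and 807 Aatk counts have the highest Slc47a1 of their group (2093 and 1996).

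Across all 42 mice, deviations from the group means gave another list. Among 12030 genes the highest correlations with Aatk were those of Smcr7 (0.708), Psmb9, an immunoproteasome subunit (0.690), Ifi35 (0.678), Bad (0.676) and Zfp444 (0.666), followed by Coa6, Prss36, Mon1a, Zcchc17 and Rassf7 (0.662 to 0.654). The lowest were those of Gsr, glutathione reductase (-0.721), Utp15 (-0.718), Mob3b (-0.702), and Igf2r and Cux1 (each -0.687). In single groups the sign was not always kept. Cux1 had 0.945 and Gsr 0.068 in WT lean mice, and Prss36 -0.452 in WT obese+RvE1 mice. Smcr7 (-0.229) and Rassf7 (-0.207) were negative in KO obese mice, and the other genes kept their sign in every group. None of these 15 genes was in the list from the WT diet comparison. Without 20L and 20-2L the 10 high values were 0.564 to 0.669 and the 5 low values -0.725 to -0.536.

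The libraries differed in how counts related to transcript length, and Aatk moved with this. For each library, the log2 deviations of its genes from their means over the 14 libraries of the table were correlated with transcript length (Spearman). This length correlation is therefore relative to the other libraries of the table. Pooled over the mice of all groups, the deviation of Aatk from its group mean was lower in libraries with a more positive length correlation (Pearson r = -0.483, permutation p = 0.00624, BH-adjusted 0.0125, and Spearman rho = -0.402, permutation p = 0.0191, BH-adjusted 0.0382, with 42 mice, 2 relations examined and 100000 permutations within groups). Without the 2 mice farthest from the median in this measure, r was -0.346. By group, r was negative in the 3 KO groups and in WT obese mice (-0.182) and positive in WT lean (0.417) and WT obese+RvE1 mice (0.333). Only in KO obese+RvE1 mice did it pass over the 6 groups (r = -0.941, exact permutation p = 0.00496, BH-adjusted 0.0298, rho = -0.929, exact permutation p = 0.00675, BH-adjusted 0.0405), where r was -0.684 without the 2 farthest mice. In KO lean and KO obese mice r was -0.765 and -0.753 (exact permutation p = 0.0508 and 0.0472, BH-adjusted 0.102 each). Whether the relation differed between genotypes was not tested. No such relation was found for GC content (r = -0.0793, permutation p = 0.605, rho = -0.0297, permutation p = 0.852). The libraries of 20L (-0.463) and 20-2L (-0.296) had the most negative length correlations of the KO lean group, and the treated KO mice with low Aatk, 12-2L and 23RL, had 0.376 and 0.403. With the length association taken out of both genes, the 10 high correlations of the 42-mouse list were 0.509 to 0.594 and the 5 low ones -0.639 to -0.558. With each library corrected for length and GC content, the log2 fold change of Aatk with the diet was 2.60 in WT and 1.27 in KO mice (BH-adjusted p = 0.0207 with limma for the latter).

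**Figure D5:**
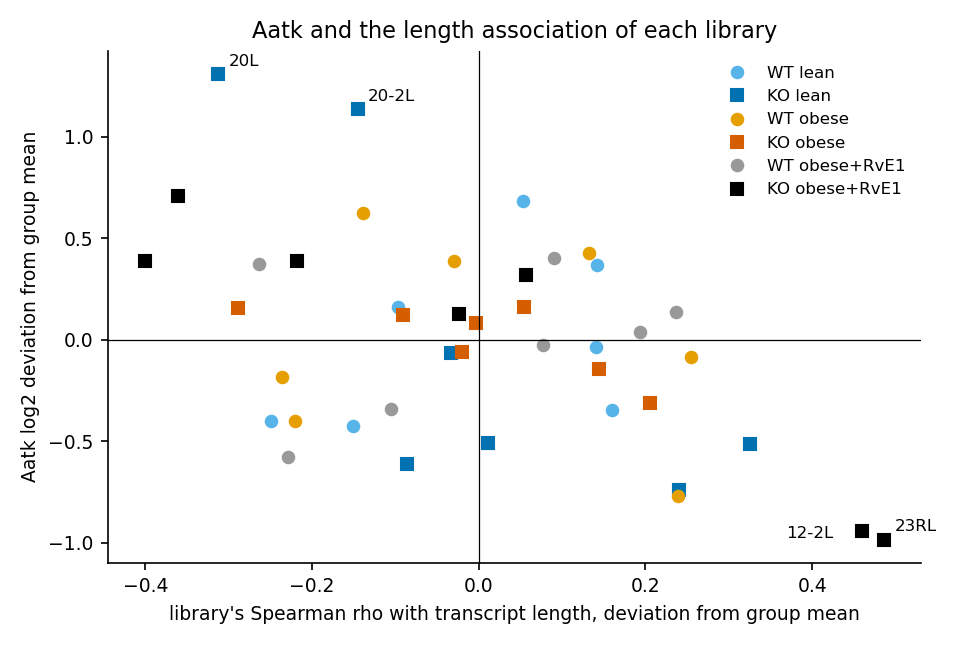
Log2 deviation of Aatk from its group mean (y axis) against the deviation of each library's length correlation from its group mean (x axis), 1 point per mouse and 6 groups. The length correlation is the Spearman correlation of a library's gene deviations from the table means with transcript length. Over all mice values fall from left to right (r = -0.483), though not in WT lean and WT obese+RvE1 mice, with 20L and 20-2L at the upper left and 12-2L and 23RL at the lower right.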

How the data were processed

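Livers of 42 mice were measured by RNA sequencing. The authors aligned reads to mm10 with Bowtie2, counted them per gene with featureCounts and normalized them with DESeq2; tool versions, annotation and the strand setting of the counting were not given in the sources used here, while the library kit was stranded. The deposited values are a signal, counts divided by a size factor per table. The tables also hold the authors' fold changes and p-values, which were not used. Whole reads were recovered for 100.0% of values (tolerance 0.1 reads). Members and lists were chosen with earlier results of these data known. Tests used limma 3.58.1 (R 4.3.3) with a trended prior on log2(value + 1), genes with a mean of at least 5 and BH adjustment over all genes, and were checked on simulated data. Genes named were Aatk, listed genes, genes within 250 kb, and the 10 highest and 5 lowest correlations. Alternatives were edgeR 4.0.16, DESeq2 1.42.0, pseudocounts, filters, scalings, blocks, weights and left-out mice. The labels do not say whether mice sharing a number in their name shared a cage or litter. Values of some list members are not reported here.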

Additional observations from a re-analysis of the deposited data

Results flagged for a closer look

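Each group of 7 mice was checked for 1 animal standing apart from the others, for Aatk and 5 genes read beside it, 36 groups in all, of which chance alone marks about 1 in 20. No group had a mouse apart in Aatk. For Lmtk2 the KO lean mouse 20R had 977 normalized counts, with 403 to 620 in the other mice of its group. For Cfd the KO obese+RvE1 mouse 23-2L had 1146, with 105 to 544 in the others. For Tpm2 the KO lean mouse 9RL had 85.2, with 11.7 to 42.3 in the others, although its Aatk level (228) was the median of its group. For Baiap2, the neighbour of Aatk, the KO obese mouse 23L had 1099, with 522 to 771 in the others.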

How the results depend on the processing

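Aatk was higher on the high-fat diet under every setting run. In WT mice the log2 fold change stayed between 2.27 and 2.71. In KO mice it stayed between 1.12 and 1.83 and remained called except where a log2 fold change above 1.5 was required (1.35). The RvE1-treated mice stayed above lean mice by 2.65 to 2.84 (WT) and 1.49 to 1.83 (KO). The difference between lean genotypes was the least stable. It lost its call with the number in the mouse name as a block (0.94), at an adjusted p under 0.05 or a log2 fold change above 1.5 (0.97 each) and without the mice numbered 9 (1.20), 20 (0.49), 21 (1.00) or 26 (0.83). Leaving out single mice gave 0.76 to 1.10, with the call lost without any 1 of 21L, 26L, 26R, 14RL, 20-2L, 20L and 9L. KO obese minus WT obese turned to 0.057 without the mice numbered 6, and the treated KO minus WT difference ran from -0.25 to 0.034 over single mice. The diet by genotype interaction passed with quality weights (-1.13) and without 22L, the only mouse numbered 22 (-1.28), and ran from -1.28 to -0.93 over single mice. The RvE1 by genotype interaction changed sign with the block (-0.051), with the length and GC correction (-0.0081) and without the mice numbered 6 (-0.19), 15 (-0.11) or 30 (-0.094), and ran from -0.076 to 0.21 over single mice. The cause of these changes was not tested.

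Genes called over the whole table varied more than Aatk. With the block, 242 in place of 532 genes were called in WT mice with the diet, 750 in place of 1476 in KO mice and 3 in place of 866 between lean genotypes. Without the mice numbered 6 or 27 the WT count was 351 or 267, and without those numbered 9 or 31 the KO count was 909 or 639. Between lean genotypes it was 1536 with quality weights, 555 with the length and GC correction, 8 to 32 without the mice numbered 9, 21 or 26, 1363 without those numbered 20, and 388 to 1480 over single mice. Scaling libraries to equal totals moved the median of all genes by 0.14 in KO mice with the diet and by -0.12 between lean genotypes. Among obese mice, 47 genes were called for RvE1 in WT mice without the mice numbered 6 and 297 in KO mice without those numbered 10, while limma called 0 to 3 in every other setting. No paired analysis was possible because the labels give no replicate numbers and only 1 number of the mouse names, 23, occurs in 2 groups (KO obese and KO obese+RvE1). With 7 mice a group, the intervals of Aatk after RvE1 leave room for a difference of up to 0.66 (WT) and 0.77 (KO) on the log2 scale.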
